A study of Mus musculus with 67 samples.

Results

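Of the 26414 genes in the deposited expression table, 10 were described here: the FGF ligand gene Fgf4, the receptor genes Fgfr1 and Fgfr2, the feedback genes Spry2, Spry4 and Dusp6, the transcription factor genes Etv4 and Etv5, and Upp1 and Spp1. They were found in the table by symbol. Upp1 and Spp1 were taken up because their values were lower in light than in control blastocysts, so that difference is given as a description with no test, and the other 8 genes were taken for their place in the pathway. The study asked how strong light at the 2-cell stage affects preimplantation development. It produced 67 SMART-seq2 libraries from C57BL/6 mouse embryos made by in vitro fertilisation, in a control and a light group at 5 stages. The light group spent 6 h of the 2-cell stage under 5000 lx and was afterwards grown without light, and the control group stayed in darkness. The females that gave the oocytes were injected with the hormones PMSG and HCG. Beyond these and the light, no agent or allele was named for either group. Control held 7 libraries of 2-cell embryos, 6 of 4-cell, 4 of 8-cell embryos, 13 of morulae and 3 of blastocysts. Light held 6, 8, 8, 6 and 6 in the same order. The methods describe a library as a single cell picked by hand from a dissociated embryo, and the labels number an embryo for each library, so a library need not represent its whole embryo. Whether 2 libraries of the same group share an embryo or a litter is not stated. If they do, they are not independent replicates of a condition. The p-values and SEs measure only the spread between these libraries, not that between embryos.

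FGF ligands bind receptor tyrosine kinases, which signal through the adaptors FRS2 and GRB2 to RAS and the kinases RAF, MEK and ERK. Active ERK induces its own inhibitors, among them the Sprouty proteins and the ERK phosphatase DUSP6, as well as the ETS-family factors ETV4 and ETV5, and the levels of these genes are widely used as a readout of the pathway. In the mouse blastocyst, epiblast cells make FGF4, and neighbouring inner cells that receive it become primitive endoderm, while the trophectoderm forms the outer layer.

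A value in the table is a gene's reads scaled by 1 factor per library, so that levels of different genes are compared only after division by exon length. Total reads per library lay between 836011 and 8551674 with a median of 4632053, and 54.0% to 89.3% of them fell on 2 rRNA genes. The ratio of these 2 genes, Gm42418 to CT010467.1, differed between the groups without overlap at 3 stages. It was 2.34 to 4.03 in control and 1.58 to 1.77 in light at the 2-cell stage, 2.01 to 2.34 and 1.52 to 1.71 at the 8-cell stage, and 2.34 to 4.14 and 1.49 to 1.67 in morulae. The ranges met at the 4-cell stage (1.61 to 4.55 and 1.43 to 1.63) and in blastocysts (1.42 to 1.45 and 1.29 to 1.75). Its part in the differences at these stages was not tested. Between 318177 and 2867034 reads per library remained for all other genes, and 3 reads were worth a value of 0.797 to 11.7. Values under that of 3 reads in a library were near the limit of detection. Of the 67 libraries, 45 resembled their own group most in rank correlation, 13 the other group of the same stage and 9 a group of another stage. Among the latter were 3 of the 4 control and 5 of the 8 light 8-cell libraries, all of which resembled light 4-cell libraries most, by a narrow margin. The other was control morula library 26, closest to control 4-cell libraries (median rank correlation 0.753, against 0.734 with its own group). It had 57.9% of its reads on the rRNA genes, against a median of 79.1% in control morulae. Control 4-cell libraries 1 and 2 stood apart, with 9486 and 9658 genes above 1 against 11050 or more in the other 4. Reads on 4 Y-linked genes reached 10 CPM, taken over the reads outside the rRNA genes, in 6 of 6 light and 0 of 3 control blastocyst libraries, so embryo sex and light cannot be told apart at that stage. They did so in 8 of 8 light and 4 of 6 control 4-cell libraries, 3 of 8 light and 0 of 4 control 8-cell libraries and 1 of 6 light and 0 of 13 control morula libraries. Such uneven counts can also arise where libraries of a group share an embryo, which was not tested.

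The 250 bases before the annotated start were read for the 4 genes with the lowest light-to-control ratio in blastocysts, to show the sequence next to their starts. They come from RefSeq on the GRCm38.p6 build, at chr7:144861136-144861385 on the plus strand for Fgf4, chr16:22439571-22439820 on the minus strand for Etv5, chr11:9117758-9118007 on the plus strand for Upp1 and chr5:104434861-104435110 on the plus strand for Spp1. Where a gene has several annotated starts the most upstream was used. Each is written 5′ to 3′ along the gene, in lower case, with matches to 5 searched motifs in capitals. Such a window was read for 7 of the 10 genes. Spry4 was left out of the search, and no window was at hand for Fgfr1 and Etv4.
Fgf4: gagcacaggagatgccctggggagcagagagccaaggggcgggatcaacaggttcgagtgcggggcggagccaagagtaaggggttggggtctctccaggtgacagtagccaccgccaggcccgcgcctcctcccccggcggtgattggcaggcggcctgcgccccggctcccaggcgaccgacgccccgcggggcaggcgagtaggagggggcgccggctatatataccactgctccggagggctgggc
Etv5: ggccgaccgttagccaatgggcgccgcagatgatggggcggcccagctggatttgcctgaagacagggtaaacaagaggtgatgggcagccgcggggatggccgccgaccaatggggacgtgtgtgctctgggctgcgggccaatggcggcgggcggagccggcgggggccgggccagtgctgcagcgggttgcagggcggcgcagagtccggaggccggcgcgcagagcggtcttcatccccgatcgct
Upp1: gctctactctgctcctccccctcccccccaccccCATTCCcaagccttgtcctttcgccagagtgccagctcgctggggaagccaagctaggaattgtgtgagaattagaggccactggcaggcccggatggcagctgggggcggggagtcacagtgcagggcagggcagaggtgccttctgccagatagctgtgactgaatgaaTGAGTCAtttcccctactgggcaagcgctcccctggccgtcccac
Spp1: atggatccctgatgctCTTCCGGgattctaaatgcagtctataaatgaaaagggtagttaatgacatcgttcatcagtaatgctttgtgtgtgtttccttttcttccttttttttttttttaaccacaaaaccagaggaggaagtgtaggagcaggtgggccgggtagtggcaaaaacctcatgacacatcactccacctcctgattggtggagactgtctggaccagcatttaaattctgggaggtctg

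The motifs, sought on both strands, were CCGGAAG for ETS factors, ATGCAAAT for the octamer, TGANTCA for AP-1, CATTGTT for SOX factors and GGAATG for TEAD. The Upp1 window held an AP-1 match 45 to 39 bases before the start and a TEAD match 216 to 211 bases before it. The Spp1 window held an ETS match 234 to 228 bases before the start. Of 32851 RefSeq mouse windows of this length, 6.91% held the ETS letters, 1.60% the octamer, 6.75% AP-1, 3.29% SOX and 12.6% TEAD. No match to these letters was found in the windows of Fgf4 and Etv5. A match is a string of letters and not evidence of a bound site.

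Seen across development, the genes split by when they were present. Per kilobase of exon, Spry4 had the highest median of the 10 genes in both 2-cell groups, 392.4 in control and 214.2 in light, and Spry2 came next in both with 36.4 and 56.3. By the morula stage Spry2 had the highest median per kilobase in both groups, 39.7 in control and 33.9 in light. In control blastocysts Spp1 led with a median of 237.5 per kilobase, ahead of Upp1 with 82.3. In light blastocysts Fgfr2 led with 7.33 per kilobase, while Upp1 had 0.651 and Spp1 0.313. Etv4 was close to absent. It had reads in 8 of the 67 libraries and at most 4 reads in any of them.

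**Figure D1:**
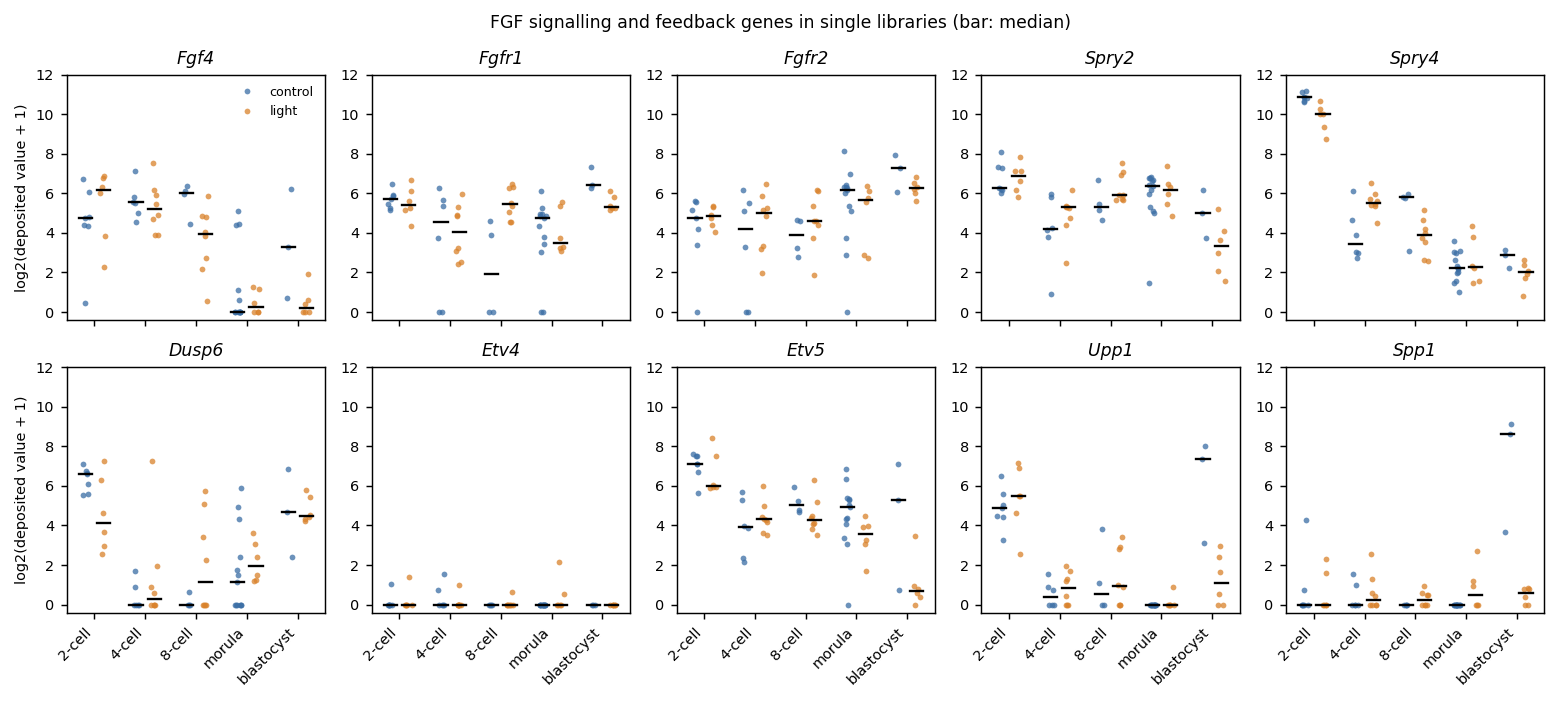
Each panel shows 1 gene, with the stage on the horizontal axis and log2(deposited value + 1) on the vertical axis, a blue point per control library, an orange point per light library and a black bar at the group median. Spry4 was highest in 2-cell libraries, Etv4 lay near 0 throughout, and Upp1 and Spp1 were high in 2 of the 3 control blastocyst libraries.

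The first question was whether light moved these genes within a stage. The test was limma on log2(value + 1), run over every gene that exceeded 1 in 3 or more of the libraries in the comparison. A call needed a Benjamini-Hochberg adjusted p below 0.05 together with a change of 2-fold or more. At the 2-cell stage, 1 of the 9 members tested was called, Spry4, which was lower in light, and 10.5% of all 18532 genes tested were called, with 4.96% of all called lower. At the 4-cell stage none of 9 was called against 1.45% of 15010 genes. At the 8-cell stage 1 of 8, Fgfr1, was called as higher in light, against 9.21% of 13861 genes called and 5.91% called higher. In morulae none of 7 was called against 1.18% of 15217 genes. In blastocysts none of the 7 tested members other than Upp1 and Spp1 was called against 5.34% of 12743 genes. At an unadjusted limma p under 0.05 stood 1 member at the 4-cell stage, 0 in morulae and 4 of those 7 in blastocysts. At the 4-cell stage and in morulae edgeR and DESeq2 on the recovered reads also called 0 members, and in blastocysts each called 1, Fgf4. With so few members, none of limma's counts of called members stands far above the share of all genes called. No share of all genes at an unadjusted p under 0.05 is given, so the unadjusted counts cannot be set against one.

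**Figure D2:**
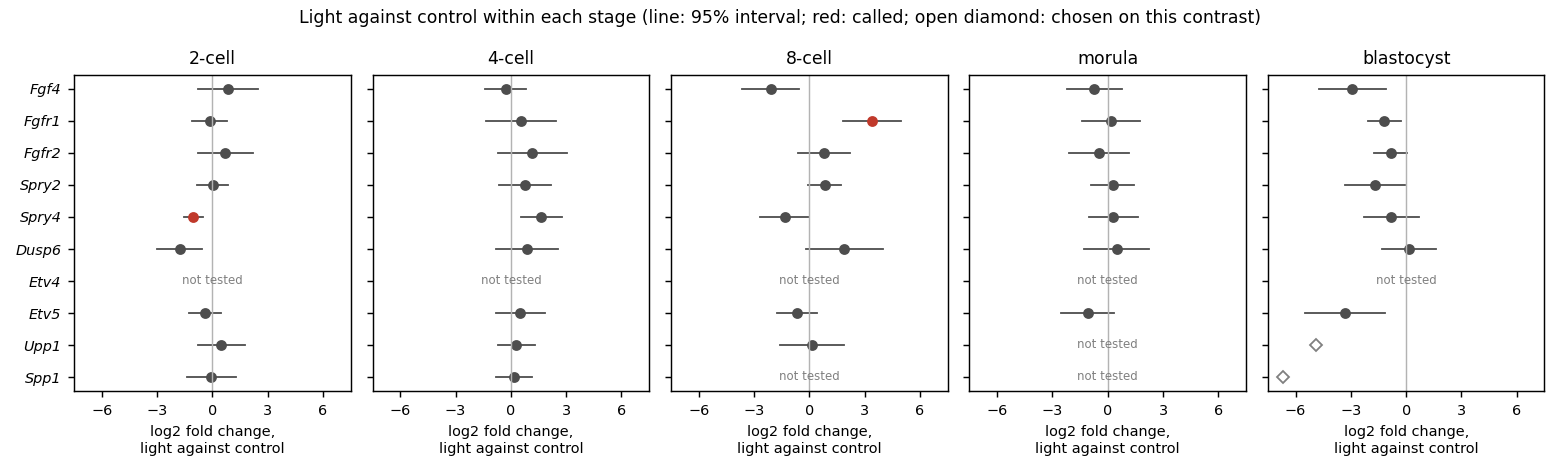
Each panel is a stage, with the 10 genes on the vertical axis and limma's log2 fold change of light against control on the horizontal axis, a line for its 95% interval, red for a called gene and an open diamond for the genes chosen on that contrast. Spry4 at the 2-cell stage and Fgfr1 at the 8-cell stage are the red points.

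Fgf4 encodes the ligand that inner cells use to signal to each other. Its value was between 0.397 and 103.1 in control 2-cell libraries, with a median of 26.0, and between 3.89 and 116.0 in light ones, with a median of 70.7. The groups overlapped almost fully, as they did at the 4-cell stage, where control lay between 22.0 and 138.9 and light between 13.7 and 184.3. At the 8-cell stage control libraries 1 to 4 had Fgf4 values of 67.6, 61.8, 20.9 and 80.9, and the light libraries lay between 0.498 and 58.2 with a median of 14.4. Light was lower in most libraries but reached into the control range, and the log2 fold change of -2.10 (SE 0.76) did not pass (limma adjusted p = 0.0786). Of 12 refits without 1 library, 11 did not pass. The other, without light library 6, which had the highest light value, passed (-2.43, limma adjusted p = 0.0409). In morulae Fgf4 was at 0 in 8 of 13 control libraries and reached 33.5, and in light it did not exceed 1.37.

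In control blastocysts 1, 2 and 3 Fgf4 had values of 73.6, 8.70 and 0.642. In light blastocysts it was at 0 in 3 libraries and at 0.320, 0.526 and 2.85 in the others. Control libraries 1 and 2 lay above all light libraries, and control library 3 lay among them. The log2 fold change was -2.91 (SE 0.88) and missed the threshold (limma adjusted p = 0.0547). Fgf4 exceeded 1 only in control libraries 1 and 2 and light library 23. Leaving out any of these took it out of the test. Of the 6 refits without 1 library that tested it, 5 did not pass. The other, without control library 3, passed at -4.26 (limma adjusted p = 0.00447). Fgf4 also passed on the recovered reads with edgeR (log2 fold change -5.12, adjusted p = 0.0447) and with DESeq2 (-5.37, adjusted p = 0.0045).

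Fgfr1 encodes the receptor found on all inner cells. In control 8-cell libraries 1 to 4 its values were 23.1, 13.8, 0 and 0. In the 8 light 8-cell libraries the lowest was 22.3, the median 42.6 and the highest 87.9. Only the lowest light values met the highest control value. The log2 fold change was 3.40 (SE 0.75, limma adjusted p = 0.00515), and it stayed past the threshold when any of the 12 libraries was left out, with adjusted p between 0.00124 and 0.0303. It was not past the threshold with edgeR's quasi-likelihood test on the recovered reads (log2 fold change 2.48, adjusted p = 0.0827). Markers of all 3 blastocyst lineages were also called at this stage. Of the 7 trophectoderm genes tested, 4, Krt8, Krt18, Cldn4 and Aqp3, were higher in light, and the summed level of the 10 listed genes was 24.4 to 81.8 in control and 108.9 to 742.4 in light. Of the 5 primitive endoderm genes tested 2, Gata6 and Dab2, were higher (log2 fold change 3.83 and 4.80), with a summed level of the list of 95.2 to 225.2 in control and 171.9 to 369.5 in light. Of the 5 epiblast genes tested 1, Tdgf1, was higher (2.25), with a summed level of 80.5 to 120.9 and 39.9 to 776.8. Of 7 genes of the transient 2-cell programme 1 passed the filter, Zfp352, which was lower in light, at 17.1 to 109.1 in control and 0 to 2.32 in light. The ratio of the 2 rRNA genes did not overlap between the groups at this stage. The part of these genes and of that ratio in the difference in Fgfr1 was not tested.

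In blastocysts Fgfr1 was at 84.2, 159.7 and 75.8 in control libraries 1 to 3 and between 34.7 and 67.7 in light, with a median of 39.1. It was the only member besides Upp1 and Spp1 whose groups did not overlap at this stage, where 12.5% of all genes tested did not overlap and 11.9% were lower in light without overlap. Its log2 fold change of -1.17 (SE 0.43) did not pass (limma adjusted p = 0.110). The median log2 fold change of all genes was -0.64 at this stage and -0.10 when libraries were scaled by the median ratio, and with that scaling Fgfr1 was at -0.52 (limma adjusted p = 0.545).

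Fgfr2 encodes the receptor that trophectoderm and primitive endoderm share. Its lowest, median and highest values in blastocysts were 66.3, 154.8 and 244.7 in control and 47.4, 75.7 and 114.1 in light. The ranges overlapped and the log2 fold change was -0.85 (SE 0.44, limma adjusted p = 0.245). No stage gave a called difference in Fgfr2, and its 10 group medians all had ranges that met those of the next group in order. Its 4-cell values were at 0 in control libraries 1 and 2, the libraries with the fewest genes, as were those of Fgfr1.

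Spry4 encodes a Sprouty protein, an inhibitor of receptor tyrosine kinase signalling. In the 7 control 2-cell libraries its lowest, median and highest values were 1592, 1866 and 2323, with a mean of 1893 ± 276 (SD, n = 7). In the 6 light 2-cell libraries they were 421, 1019 and 1648, with a mean of 997 ± 430 (SD, n = 6). Of the light libraries, 5 lay below every control library and library 15 lay among them. Spry4 fell 2.06-fold in light (log2 fold change -1.04, SE 0.25, limma adjusted p = 0.00586). The fold stood at the 2-fold limit, and leaving out control library 10, light library 12 or light library 14 took it below the limit with log2 fold changes of -0.99, -0.82 and -0.94 each with an adjusted p under the threshold. It also stood below the limit with DESeq2 (-0.95, adjusted p = 0.00785) and when scaled to the reads outside the rRNA genes (-0.98), and it missed the adjusted p in a limma fit over all 67 libraries (-1.04, adjusted p = 0.166).

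Of 7 oocyte genes, 2 were also lower in light at this stage, Bmp15 and Oosp1. The summed level of 7 oocyte genes was 2331 to 5119 in control 2-cell libraries and 650.2 to 2052 in light ones, with no overlap. That of 8 cumulus cell genes was 23.0 to 99.0 in control and 72.1 to 234.0 in light, and 1 of the 5 tested, Tnfaip6, was higher in light (log2 fold change 2.65). The part of these genes and of the rRNA gene ratio in the difference in Spry4 was not tested.

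At the 4-cell stage Spry4 had the opposite order. Control libraries lay between 5.75 and 69.0 with a median of 10.5, and light libraries between 21.5 and 91.7 with a median of 44.9. Control library 1 held the 69.0 and the other 5 were at 24.4 or below. The log2 fold change of 1.65 (SE 0.55) did not pass (limma adjusted p = 0.118). It passed in 1 of 14 refits without 1 library, that without control library 1 (2.10, limma adjusted p = 0.0419). Without control libraries 1 and 2 it was 2.20 (limma adjusted p = 0.0245). At the 8-cell stage control libraries 1 to 4 were at 7.40, 53.8, 61.5 and 55.9 and light ones between 5.09 and 34.7, again with a single control library among the light ones. The log2 fold change was -1.34 (SE 0.63, limma adjusted p = 0.186). Of 12 refits without 1 library, 11 did not pass and that without control library 1 did (-2.04, limma adjusted p = 0.0363). DESeq2 on the recovered reads gave -1.74 (adjusted p = 0.0331).

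Spry2 encodes a second Sprouty protein. It had reads in every library, its medians lay between 9.32 in light blastocysts and 117.4 in light 2-cell libraries, and no difference between light and control passed at any stage. In blastocysts its values were 31.0, 69.9 and 12.2 in control libraries 1 to 3 and 1.92 to 36.3 in light, with a log2 fold change of -1.70 (SE 0.78, limma adjusted p = 0.19).

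Dusp6 encodes a phosphatase that acts on ERK. In control 2-cell libraries it lay between 44.8 and 138.3 with a median of 95.6, and in light between 4.95 and 154.2 with a median of 17.5. Light libraries 9, 12, 15 and 16 were at 23.3 or below, under every control library, whereas light libraries 10 and 14 were at 76.4 and 154.2. The log2 fold change of -1.77 (SE 0.60) just missed the threshold (limma adjusted p = 0.053). Of 13 refits without 1 library, 10 did not pass and 3 did, among them that without light library 14 (-2.32, limma adjusted p = 0.0104). Under 6 of 9 other settings on all libraries Dusp6 still did not pass. Those under which it passed included scaling by the median ratio (-1.78, limma adjusted p = 0.0339). At the 4-cell stage Dusp6 was at 2.82 or below in 13 of 14 libraries, and light library 11 had 149.5. At the 8-cell stage it was at or near 0 in all 4 control libraries, 0.532 at most, and between 3.80 and 51.8 in 4 of the 8 light libraries with the other 4 at 0. That difference did not pass (log2 fold change 1.91, SE 1.01, limma adjusted p = 0.242), but did with DESeq2 on the recovered reads (adjusted p = 0.0432). Dusp6 met the filter on low values at this stage only through those 4 light libraries, so neither p is independent of the filter. In blastocysts both groups had Dusp6, at 4.21, 114.8 and 25.0 in control libraries 1 to 3 and at 17.8 to 54.7 in light, a log2 fold change of 0.15 (SE 0.71, 95% interval -1.31 to 1.62, limma adjusted p = 0.92).

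Etv5 encodes an ETS-family factor induced by ERK. In control blastocysts 1 to 3 its values were 134.7, 37.9 and 0.642. In light blastocysts library 13 had 10.1 and the other 5 were under 1. The order of the control libraries was that of Fgf4, with library 3 in the light range. The log2 fold change was -3.33 (SE 1.05) and did not pass (limma adjusted p = 0.0653). Etv5 exceeded 1 only in the 3 libraries at 134.7, 37.9 and 10.1, and leaving out any of these took it out of the test. Of the 6 refits without 1 library that tested it, 5 did not pass. The other, without control library 3, passed at -5.15 (limma adjusted p = 0.00144). Up to the morula stage the ranges of Etv5 in control and light overlapped, and no log2 fold change passed. Etv4, which encodes a related factor, passed the filter on low values within no stage.

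Upp1 encodes uridine phosphorylase, which breaks uridine down to uracil, and Spp1 encodes osteopontin, a secreted protein that binds integrins. In control blastocysts 1 to 3 Upp1 had values of 255.6, 161.4 and 7.71. In light blastocysts it was 4.27, 2.10, 6.77 and 0.450 in libraries 13, 15, 23 and 24 and 0 in libraries 26 and 29. Spp1 had 391.3, 547.3 and 11.6 in control libraries 1 to 3 and at most 0.776 in light, where no library had more than 2 reads. All control values lay above all light values for both genes, but for Upp1 control library 3 was only just above light library 23. These are the values for which the genes were chosen.

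What the choice did not use were the earlier stages. Upp1 was present in 2-cell libraries, between 8.73 and 89.7 in control and between 4.95 and 139.9 in light, and the log2 fold change was 0.48 (SE 0.63, limma adjusted p = 0.685). It was at 2.89 or below in all 4-cell libraries, at 13.4 or below at the 8-cell stage and at 0 in all 13 control morulae. Spp1 was at 18.6 in control 2-cell library 8 and at 5.47 or below in every other library before the blastocyst, and was at 0 in all 13 control morulae. Neither gene passed in light against control at the 2-cell or 4-cell stage.

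Lineage markers varied between the same blastocyst libraries. The summed level of 7 epiblast genes was 1309, 965.8 and 126.5 in control libraries 1 to 3 and 70.3 to 183.4 in light. The summed level of 10 primitive endoderm genes was 902.6, 670.8 and 281.3 in control and 291.4 to 452.8 in light. The summed level of 10 trophectoderm genes was 564.9, 4062 and 8644 in control and 3187 to 8606 in light. Control library 3 thus lay in the light range, or beside it, in all 3 lists, and library 1 had the least trophectoderm RNA of the 9 libraries.

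Defining markers did not all keep 1 order. Nanog was at 249.9, 301.6 and 65.5 in control libraries 1 to 3 and at 20.3 or below in light, so that control library 3 also lay above every light library. Sox2 was at 18.4, 12.9 and 0.642 in control, at 2.10 in light library 15 and at 0 in the other 5. Pdgfra was at 123.6, 55.3 and 0 in control and at 2.10 or below in light. Sox17 was at 25.8 in control library 1 and at 0 in the other 2, and reached 4.66 in light. Gata4 was at 70.5, 0.348 and 5.78 in control and between 0 and 3.10 in light, and Gata6 at 259.8, 210.1 and 36.6 in control and between 64.4 and 124.0 in light. Cdx2 was at 7.89, 167.3 and 195.8 in control and between 128.3 and 243.7 in light. Of the 6 epiblast genes tested 4 were lower in light, of the 8 primitive endoderm genes 2 were lower, and of the 10 trophectoderm genes none was called. Of all genes tested at this stage 4.98% were called lower, with a median log2 fold change of -0.64. As each library is described as a single cell, light and the type of cell picked cannot be told apart in these values.

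**Figure D3:**
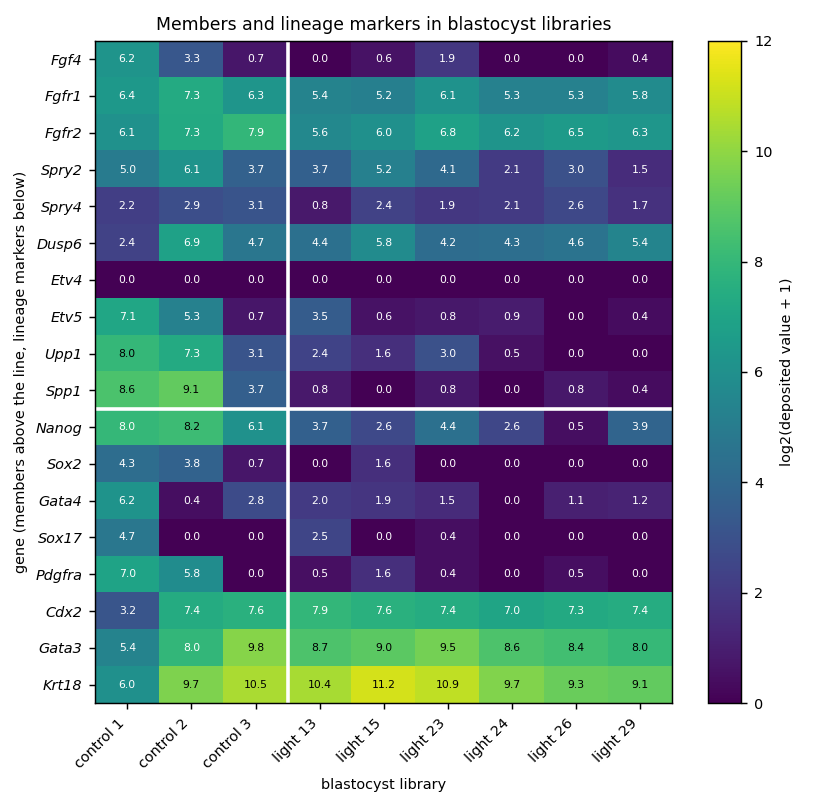
Rows are the 10 genes and, under the white line, 8 lineage markers, columns are the 9 blastocyst libraries with control left of the white line, and colour and print give log2(deposited value + 1). Fgf4, Etv5, Upp1, Spp1, Nanog, Sox2 and Pdgfra were higher in control libraries 1 and 2 than in control library 3 and the 6 light libraries.

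The second question was how the genes changed from stage to stage in each group. From the 2-cell to the 4-cell stage 6 of the 10 members fell in control and none rose, where 44.9% of 20395 genes were called and 31.2% were called lower. Spry4 fell from a median of 1866 to 10.5, a log2 fold change of -6.97 (SE 0.41, limma adjusted p = 1.18e-16). Dusp6 fell by 5.90 on the log2 scale, from a median of 95.6 to 0. The others were Upp1 at -4.35, Etv5 at -3.13, Spry2 at -2.64 and Fgfr1 at -2.18 (limma adjusted p = 1.67e-06, 1.21e-05, 0.000424 and 0.0205). The call of Fgfr1 rested on control 4-cell libraries 1 and 2, both at 0, since the log2 fold change without them was -0.43 (limma adjusted p = 0.595). The median log2 fold change of all genes was -0.54 in control and -0.44 in light.

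In light 5 of the 10 fell, Upp1 at -4.54, Spry4 at -4.27, Dusp6 at -3.23, Etv5 at -2.21 and Spry2 at -1.90, where 26.5% of all genes were called and 21.6% were called lower. All 5 were among the 6 of control. Fgf4 fell in neither group, with medians of 26.0 and 45.5 in control and 70.7 and 36.0 in light. The test of the difference itself called 1 member, Spry4, against 3.07% of all genes called and 1.63% called higher. Its fall was smaller in light by 2.69 on the log2 scale (SE 0.57, limma adjusted p = 0.00978), since light libraries started lower and ended higher. For Dusp6 the difference was 2.67 (SE 1.21, limma adjusted p = 0.221), and light 4-cell library 11 held the high value. The light fall of Dusp6 was not called by edgeR or DESeq2 (adjusted p = 0.315 and 0.517).

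**Figure D4:**
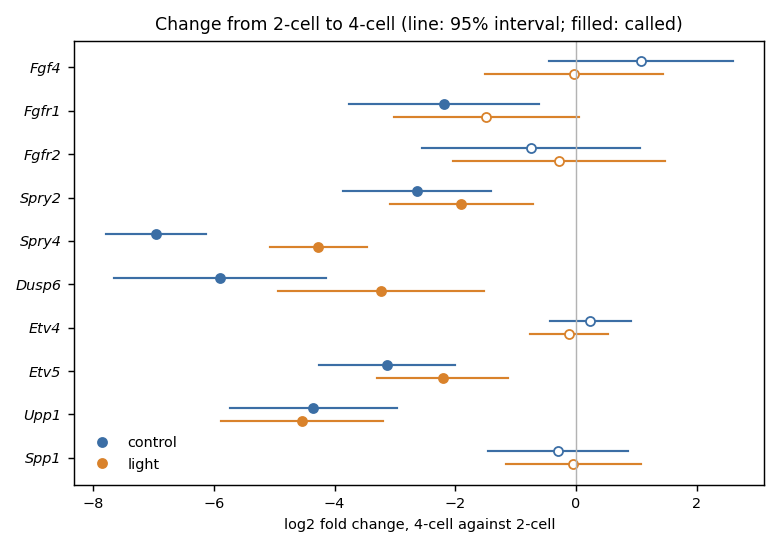
The 10 genes are on the vertical axis and limma's log2 fold change of 4-cell against 2-cell libraries on the horizontal axis, in blue for control and orange for light, with 95% intervals as lines and filled points for called genes. The Spry4 intervals of control and light lie apart, at -6.97 and -4.27.

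From the 4-cell to the 8-cell stage no member was called in control, where 12.2% of 16987 genes were called, and 0 of the 9 tested had an unadjusted limma p under 0.05. On the recovered reads edgeR also called 0 and DESeq2 called 1. In light Spry4 fell by 1.74 on the log2 scale (SE 0.51, limma adjusted p = 0.0325), against 5.42% of genes called, 5.16% lower, and a median of all genes of -0.38. That call was absent under another scaling, where the log2 fold change was -1.16 with the median ratio (limma adjusted p = 0.345). The difference between the groups in this change was called for Spry4 as well, at -2.997 (SE 0.83, limma adjusted p = 0.0333), with 3.80% of genes called and 2.11% called lower. It was not past the threshold when control 8-cell library 2, 3 or 4 was left out (limma adjusted p between 0.0758 and 0.0795). Errfi1, an inhibitor of receptor kinases, differed the same way (-3.66, SE 0.99, limma adjusted p = 0.0277).

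From the 8-cell stage to the morula Fgf4 fell in both groups, by 4.51 on the log2 scale in control (SE 0.92, limma adjusted p = 0.000393) and by 3.14 in light (SE 0.87, limma adjusted p = 0.0257). Spry4 fell by 2.84 in control (SE 0.65, limma adjusted p = 0.00146). These were the 2 of 8 members called in control, against 17.3% of 17431 genes called and 9.40% called lower, and the 1 of 8 called in light, against 4.90% and 3.02%. The difference between the groups was called for 0 members by limma, edgeR and DESeq2, against 2.62% of genes, and 1, Fgfr1, had an unadjusted limma p under 0.05.

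From morula to blastocyst 2 of the 7 tested members other than Upp1 and Spp1 rose in control, Fgfr1 and Dusp6, by 2.79 (SE 0.86, limma adjusted p = 0.0217) and 2.96 (SE 1.04, limma adjusted p = 0.0462), where 16.2% of 16855 genes were called and 10.0% were called higher. Neither call was firm. That of Fgfr1 was lost without any of the 3 control blastocyst libraries, and that of Dusp6 without library 2 or 3. Upp1 and Spp1, at 0 in all 13 control morulae, appeared in control blastocysts, and since their values there were used to choose them this is given with no test. In light Spry2 fell by 2.82 (SE 0.70, limma adjusted p = 0.00622), from a median of 70.7 in morulae to 9.32 in blastocysts, where 9.44% of genes were called and 7.22% were called lower. The difference between the groups was called by limma, edgeR and DESeq2 for 0 of the 7 tested members other than Upp1 and Spp1, against 1.57% of genes, and 0 of them had an unadjusted limma p under 0.05.

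Around the 10 genes, 74 others of the pathway were in the table: ligands, receptors and co-receptors, adaptors, the kinases from RAS to ERK, negative regulators and ERK-responsive transcription factors. At the 2-cell stage 1 of the 67 tested was higher and 4 were lower in light. The median log2 fold change of the 67 was -0.11, against 0.00 for all genes. The 5 of 67 called are a smaller share than the 10.5% of all genes called. The 4 of 67 lower are a slightly larger share than the 4.96% of all genes called lower. All but 1 of those lower were negative regulators, 3 of the 13 tested. Dusp7, which encodes another ERK phosphatase, lay between 1793 and 3509 in control and between 220.1 and 532.2 in light, so that every light library lay below every control library. It fell 6.77-fold (log2 fold change -2.76, SE 0.24, limma adjusted p = 1.8e-08). Of all genes tested at this stage, 4.15% did not overlap between the groups.

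Spry1, another Sprouty gene, lay between 15.7 and 71.8 in control and between 1.65 and 16.8 in light, and fell 5.26-fold (limma adjusted p = 0.0118). Rasa1, which encodes a GTPase activator of RAS, fell 3.22-fold (limma adjusted p = 0.00483), and Mapk3, which encodes ERK1, fell 3.40-fold (limma adjusted p = 0.0226, lost in 5 of 13 refits without a library). Map2k2, which encodes MEK2, rose 2.21-fold (limma adjusted p = 0.0408), a call lost in 7 of 13 refits without a library. Rasa1 and Mapk3 were named after their values were seen. The other negative regulators, such as Errfi1 and Cbl, were not called. The change from the 2-cell to the 4-cell stage differed between the groups for 2 of the 13 negative regulators, Errfi1 and Dusp7, at 2.46 and 2.17 on the log2 scale (limma adjusted p = 0.0247 for both), with a smaller fall in light as for Spry4.

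**Figure D5:**
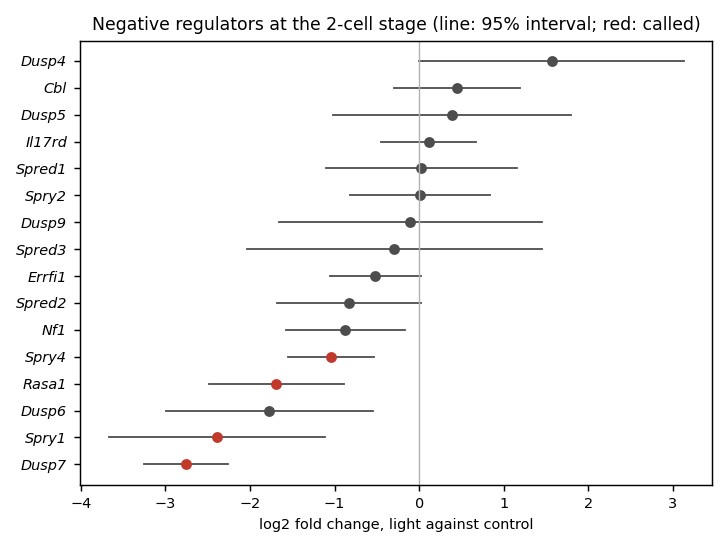
The 13 listed negative regulators tested and the members Spry2, Spry4 and Dusp6 are on the vertical axis and limma's log2 fold change of light against control 2-cell libraries on the horizontal axis, with 95% intervals as lines and called genes in red. Dusp7, Spry1, Rasa1 and Spry4 are the called genes and all lie left of 0.

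In 4-cell libraries 1 of 51 pathway genes was called, against 1.45% of all genes. It was Myc, which was higher in light (log2 fold change 3.29, SE 0.85, limma adjusted p = 0.0468). That call was lost in 12 of 14 refits without a library and with edgeR and DESeq2. In 8-cell libraries 2 of 50 were higher and 5 lower in light, against 9.21% of all genes called in either direction. Gab1, an adaptor gene, was at 0 in all 4 control libraries and between 1.90 and 71.3 in light (limma adjusted p = 0.000287). It met the filter on low values through the light libraries alone, so that p is not independent of the filter. Sdc4, a heparan sulphate co-receptor gene, was between 0 and 8.13 in control and between 5.98 and 218.7 in light (log2 fold change 3.94, SE 0.93, limma adjusted p = 0.00843). Dusp7 was lower again, between 23.2 and 74.0 in control and between 0 and 15.4 in light (log2 fold change -3.79, SE 0.84, limma adjusted p = 0.00537). Fgf7, a ligand gene, reached 89.4 in control and was at 0 in 6 of 8 light libraries (log2 fold change -2.85, SE 0.86, limma adjusted p = 0.0356), a call lost in 8 of 12 refits. The other 3 lower in light were Cbl, Grb2 and Sos1, named after their values were seen.

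In morulae 1 of 56 was called, against 1.18% of all genes. It was Dusp7, between 5.26 and 46.4 in control and between 0 and 8.48 in light (log2 fold change -2.57, SE 0.65, limma adjusted p = 0.0412), and edgeR and 11 of 19 refits without a library lost the call. In blastocysts 1 of 46 was higher and 4 were lower in light, against 5.34% of all genes called in either direction and 4.98% called lower. Gab1 was at 0, 0.696 and 30.5 in the control libraries and between 54.8 and 141.5 in light (log2 fold change 4.48, SE 0.75, limma adjusted p = 0.00296). Dusp9, which encodes an ERK phosphatase, was between 13.2 and 61.0 in control and between 0 and 7.20 in light (log2 fold change -3.65, SE 0.83, limma adjusted p = 0.0166), and Araf, which encodes a RAF kinase, between 113.1 and 255.6 in control and between 28.3 and 68.9 in light (log2 fold change -1.82, SE 0.43, limma adjusted p = 0.0172). On the recovered reads edgeR called none of these 3 genes (adjusted p = 0.0687, 0.0758 and 0.109), and DESeq2 did not call Gab1 (adjusted p = 0.103). Under 8 other settings on all libraries, Gab1 kept its call in 6, and Dusp9 and Araf in 4 each. The log2 fold change of Araf lay between -1.84 and -1.06 in them. The median of all genes was -0.64 at this stage and -0.10 with the median ratio. Gpc4 and Dusp5, the others lower in light and named after their values were seen, were at 18.4 or below in every blastocyst library, and both calls were lost under all 7 other settings tried on all libraries (lowest adjusted p = 0.0526 and 0.102). Dusp9, Araf and Gpc4 lie on the X chromosome, and Y-linked reads reached 10 CPM in all light and no control blastocyst libraries. The part of sex in their difference was not tested.

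Genes whose 10 group means on the log2(value + 1) scale followed a member most closely were sought among 15655 genes. These correlations share libraries and depth and are a description. Spry4 was followed by Spin1, Fyco1 and Pde3b (Pearson r = 0.996, 0.995 and 0.995). Dusp6 was followed by Rai14 and Myo1e (r = 0.985 and 0.981), Fgf4 by Phrf1 (0.972), and Etv5 by Rev3l (0.960). Spp1 was followed by Ptprtos, Nuak1 and Col5a2 (r = 0.9935, 0.9902 and 0.9888), and Upp1 by Epp13, Ust and Adam22 (r = 0.979, 0.979 and 0.977), and both use the control blastocyst values for which the 2 genes were chosen. Fgfr1 and Fgfr2 were followed by Gba2 (0.943) and Zfp688 (0.965). Spry2 and Etv4 had the least close partners, Zfp706 (0.930) and Pgbd1 (0.876).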

How the data were processed

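Libraries were made by SMART-seq2, per the labels, and the submitters' processing notes name HISAT2, HTSeq 0.9.1 and the build mm9. The study's methods speak of RPKM, but the deposited values are a signal, reads per gene scaled by a factor for each library. Multiplying by 1 factor per library gave whole reads (within 0.01) for at least 99.97% of values in each library, and 13 genes had a value that was not whole. The 10 genes and all gene lists were chosen with earlier results of these data known.

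The main test was limma 3.58.1 in R 4.3.3 (lmFit and eBayes with trend) on log2(value + 1), over genes exceeding 1 in 3 or more libraries of the comparison, per stage for light against control and with a stage-by-light term for changes between stages. A fold change on this scale understates that of low genes. Calls needed a Benjamini-Hochberg adjusted p under 0.05 over all genes tested and a fold change of 2. Alternatives were edgeR 4.0.16 and DESeq2 1.42.0 on the recovered reads, other pseudocounts, filters and scalings, 1 fit over all libraries, a replicate block, and leaving out libraries. The code was tested on simulated data. At the 2-cell stage limma called 1944 genes, edgeR 2163 and DESeq2 2770, and in blastocysts 680, 151 and 466.

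By rule, the named genes were the 10 members, the 3 genes most like each member, and 8 lineage markers. The rule also took up to 2 called pathway genes with the largest rise and fall per stage, with a group mean of at least 10. Further genes of the pathway and marker lists, such as Rasa1, Errfi1, Krt8 and Bmp15, were named outside this rule with their values known. Exon lengths came from GENCODE M21 and upstream windows from RefSeq. Values were given with n and SD where averaged, and the closest pair of libraries in any group differed beyond sampling noise.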

Additional observations from a re-analysis of the deposited data

Results flagged for a closer look

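Among 66 sets of a gene in a group of 4 to 10 libraries, 15 had a library far from the others by Dixon's criterion. Its chance rate of about 1 of 20 sets assumes normally distributed values. The criterion was applied to values not on a log scale, many of them low and skewed. The count of 15 therefore cannot be set against that rate, and the sets are listed as a description. Light 4-cell library 11 held 3 of these 15 sets, with Fgf4 at 184.3 against at most 70.6 in the others, Dusp6 at 149.5 against at most 2.82, and Etv5 at 62.9 against at most 30.1. In the control 4-cell group Fgf4 was at 138.9 in library 2, Spry4 at 69.0 in library 1 and Dusp6 at 2.28 in library 3. In the control 8-cell group Spry4 was at 7.40 in library 1, below the others at 53.8 or more, and Upp1 at 13.4 in library 4. In light blastocysts Fgf4 was at 2.85 in library 23 and Etv5 at 10.1 in library 13. Etv5 was at 77.4 in light 8-cell library 7, and Etv4 at 3.49 in light morula library 12. Spp1 was at 18.6 in control 2-cell library 8, at 4.91 in light 4-cell library 1 and at 5.47 in light morula library 5.

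The change of Spry4 differed between the groups by limma's test of the difference itself, by 2.69 on the log2 scale from the 2-cell to the 4-cell stage and by -2.997 from the 4-cell to the 8-cell stage.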

How the results depend on the processing

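Counts of members called by limma moved by over 1.5 times under these settings, and the cause was not tested. For light against control at the 2-cell stage the count of 1 became 2 with a mean above 5 and with the median ratio, and 0 with DESeq2, the replicate block and the fit over all libraries. At the 4-cell stage 0 became 1 with the fit over all libraries and without control libraries 1 and 2, an alternative chosen after seeing the data. At the 8-cell stage 1 became 0 with edgeR and 3 with DESeq2, and in blastocysts 0 became 1 with edgeR, DESeq2 and the fit over all libraries. Leaving out 1 library gave 0 to 2 at the 2-cell stage, 0 to 1 at the 4-cell stage, 1 to 2 at the 8-cell stage, 0 in morulae and 0 to 2 in blastocysts. For the difference in the change from the 2-cell to the 4-cell stage, 1 became 2 with edgeR and DESeq2. From the 4-cell to the 8-cell stage, 0 became 1 in control with the median ratio and DESeq2, and 1 became 0 in light with the median ratio, per-million scaling and edgeR. The difference in that change gave 0 to 1 when 1 library was left out. From the 8-cell stage to the morula 2 became 4 in control with DESeq2. From morula to blastocyst, without Upp1 and Spp1, 2 became 0 in control with a pseudocount of 0.1, 1 without the filter, with edgeR and with DESeq2, and 0 to 1 without 1 library, and in light 1 became 2 with a mean above 5, the median ratio and per-million scaling and 3 with DESeq2. Of the alternatives for single genes that kept all libraries or left out several, 562 kept direction and side of the threshold, 66 lost the call, 10 gained it and 20 turned the direction.

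Every turn was of light against control in a gene that limma did not call, and none was called after it. At the 2-cell stage the log2 fold change turned to -0.0003 for Fgfr2 and -0.045 for Spry2 with edgeR, to -0.37 for Spry2, -0.44 for Upp1 and 0.29 for Spp1 with the replicate block, and for Spp1 to 0.12 with a pseudocount of 0.1 and 1.86 with DESeq2, which gave no adjusted p. In 4-cell libraries Fgfr1 turned to -0.41 with edgeR and -0.38 with DESeq2, and without control libraries 1 and 2 Fgfr1 turned to -1.21, Fgfr2 to -0.51 and Spp1 to -0.021. In 8-cell libraries Upp1 turned to -0.47 with edgeR and -0.56 with DESeq2. In morulae Fgfr1 turned to -0.028 with edgeR, -0.0069 with DESeq2 and -0.96 with the block, Dusp6 to -0.69 with edgeR and -0.68 with DESeq2, and Spry2 to -0.0012 with the block. Leaving out 1 library gave values on both sides of 0 for Fgfr1 (-0.39 to 0.078), Spry2 (-0.20 to 0.23) and Spp1 (-0.19 to 0.059) at the 2-cell stage, Fgf4 (-0.59 to 0.034) and Fgfr1 (-0.16 to 1.10) at the 4-cell stage, Upp1 (-0.27 to 1.01) at the 8-cell stage, Fgfr1 (-0.15 to 0.36), Spry2 (-0.09 to 0.52) and Spry4 (-0.042 to 0.54) in morulae, and Dusp6 (-0.98 to 1.26) in blastocysts. The cause was not tested.

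Replicate numbers shared by control and light did not pair the libraries: same-numbered libraries correlated between -0.087 and 0.069 in their deviations, and none correlated best with its own number. With the replicate block Spry4 at the 2-cell stage was at -1.48 (limma adjusted p = 0.115), and no gene was called at the 2-cell, 4-cell or morula stage. Depth limits genes near 3 reads, such as Etv4.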
